A study of Homo sapiens with 12 samples.

Results

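The genes described here are 10 members of the machinery that takes cells from G1 into S phase, chosen by name: the kinases CDK2, CDK4 and CDK6, the D-type cyclins CCND1 and CCND3, the E-type cyclins CCNE1 and CCNE2, the inhibitors CDKN1A (p21) and CDKN1B (p27), and the pocket protein RB1. All 10 were among the 12616 genes measured, and they were chosen with earlier results of these data known. They were followed in MeWo and SkMel28, 2 established human cutaneous melanoma lines, each carrying a short hairpin RNA against MITF that doxycycline (Dox) switches on. MITF is the transcription factor that defines the melanocyte lineage. Control cells received 0 and Dox cells 1 µg/ml of the drug for 8 days, which gave MeWo control, MeWo Dox, SkMel28 control and SkMel28 Dox with 3 libraries each. All 4 groups carry the hairpin, and no cells without it were given Dox here, so the hairpin and the drug cannot be told apart. The labels give EMEM as the medium of MeWo and RPMI as that of SkMel28, so line and medium cannot be told apart either.

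In G1, D-type cyclins bind CDK4 or CDK6 and the complexes begin to phosphorylate the RB1 protein, which otherwise holds E2F transcription factors in check. E-type cyclins then activate CDK2, which completes this phosphorylation and helps to start DNA replication, while p21 and p27 bind and restrain these kinase complexes. In melanocytes and melanoma, CDK2, which lies next to the pigment gene PMEL, is known as a gene that MITF regulates. RNA levels do not report kinase activity, since the cyclins and p27 are controlled to a great extent by protein breakdown.

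The RNA was read at its 3′ end, and each library held 2568187 to 3714608 reads. Values are reads per 1000000 of effective library size, and on this scale 1 read is worth 0.278 to 0.389 and 3 reads 0.835 to 1.17. Changes are differences of log2(value + 1), estimated with limma over all 12 libraries and all genes and given with their standard error (SE), and a gene was called at a Benjamini-Hochberg adjusted p under 0.05. The labels do not say that the 3 libraries of a group came from separate cultures, so p-values measure the spread between these libraries, which may be technical. Of 8 melanocytic markers 8 were listed in the table, and of 7 markers of keratinocytes, fibroblasts, blood, endothelium and epithelium 0 were. MITF itself stood at 657, 663 and 708 in MeWo control and at 451, 354 and 371 in MeWo Dox. In SkMel28 it stood at 861, 739 and 792 without Dox and at 575, 578 and 552 with it. MITF was thus below its controls in all 6 Dox libraries, and least so in MeWo Dox replicate 1 among the MeWo libraries.

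A pair of libraries stood apart for several of the 10 genes. MeWo Dox replicate 1 lay between the controls and the other two Dox libraries for CDK2, CDK4, CCND1 and CCND3, and across genes replicates of MeWo Dox correlated at 0.960 to 0.976 against 0.984 to 0.985 in MeWo control. SkMel28 control replicate 2 was the lowest of its group for CDK2, CDK4, CCNE1 and CDKN1A. Where leaving out either library changed a call, the value without it is given.

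**Figure D1:**
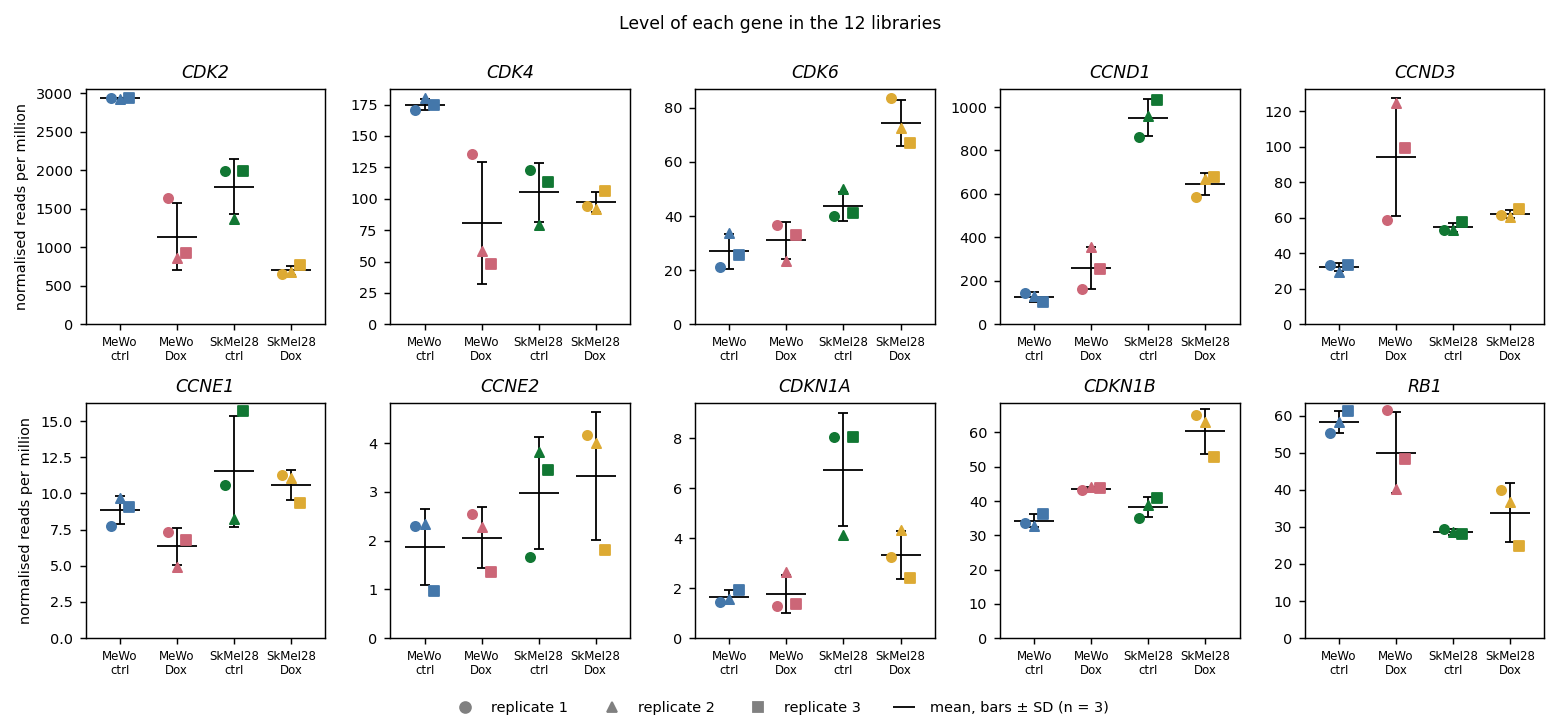
Normalised reads per 1000000 (vertical axis, a separate linear scale from 0 for each gene) of the 10 genes in the 4 groups of 3 libraries, where symbols mark replicate numbers and lines the mean with ± SD. CDK2 is lower with Dox in both lines, CDK4 is lower and CCND1 and CCND3 are higher with Dox in MeWo, and CDK6 and CDKN1B are higher with Dox in SkMel28.

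With Dox, 4 of the 10 genes were called in MeWo, where 16.7% of all genes were called. CCND1 and CCND3 rose (8.58% of all genes were higher) and CDK2 and CDK4 fell (8.12% were lower). In SkMel28 3 of the 10 were called against 10.9% of all genes. CDK6 and CDKN1B rose there (5.88% of all genes were higher) and CDK2 fell (5.04% were lower). CDK2 was thus the 1 gene of the 10 called in both lines. Groups did not overlap for 6 of the 10 genes in MeWo, where this held for 28.8% of all genes, and for 5 of the 10 in SkMel28, where it held for 32.3%. The median change of the 10 genes was 0.072 in MeWo and 0.020 in SkMel28, beside 0 and 0.0029 over all genes. Of the 10 changes 4 were negative in MeWo and 5 in SkMel28, so both directions are found among these genes in each line.

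CDK2 is the kinase that E-type and A-type cyclins activate at the G1/S boundary. It lies on chromosome 12 (hg38, 55966781 to 55972789, + strand, 12 annotated transcripts). In MeWo control it stood at 2940, 2927 and 2936, and in MeWo Dox at 1640, 860.3 and 922. In SkMel28 control it stood at 1992, 1372 and 1992, and in SkMel28 Dox at 655, 675 and 771. Every Dox library lay under every control library of its line, the MeWo controls lay close together, and the first Dox library of MeWo stood well above the others. The mean fell by 61.1% in MeWo, from 2934 ± 6.56 to 1141 ± 433.5 (SD, n = 3), which on the log2 scale was −1.43 (SE 0.19, adjusted p 5.26e-05). The SkMel28 mean fell by 60.7%, from 1785 ± 358 to 700.8 ± 62.0, or −1.33 on the log2 scale (SE 0.19, adjusted p 0.000172). The difference between these changes was −0.096 (95% interval −0.67 to 0.48, adjusted p 0.857). Without MeWo Dox replicate 1 the MeWo change was −1.72, and without SkMel28 control replicate 2 the SkMel28 change was −1.51. Over the alternative analyses the change stayed called and negative in both lines, between −1.72 and −1.15 in MeWo and between −1.51 and −1.24 in SkMel28. In bulk RNA, fewer cells that express a gene and less of its RNA per cell cannot be told apart.

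In order of the group means CDK2 was highest in MeWo control, followed by SkMel28 control, MeWo Dox and SkMel28 Dox. Only SkMel28 control and MeWo Dox overlapped among neighbours in this order.

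CDK2 shares its locus with PMEL, the gene of the melanosome matrix protein (chromosome 12, 55954105 to 55973317, − strand). Of 19 annotated PMEL transcripts, 1 reaches across CDK2 and overlaps its exons, 0 end inside CDK2, and the nearest PMEL 3′ end lies 5581 bases from CDK2. The strand used in counting is not given in the sources used here. If strand was ignored, reads in the exon stretches that this transcript shares with CDK2 cannot be told apart. The 3′ end of this transcript is annotated at −8.23 kb from the first base of CDK2. PMEL fell with Dox as well, with log2 changes of −1.19 in MeWo and −1.35 in SkMel28. The level of CDK2 was 38.2, 39.3 and 40.7% of that of PMEL in MeWo control and 46.3, 26.7 and 30.5% in MeWo Dox. In SkMel28 it was 29.7, 22.5 and 29.0% without Dox and 25.9, 26.1 and 29.8% with it. Over the 12 libraries the level of CDK2 ranged from 22.5 to 46.3% of that of PMEL. In MeWo Dox replicate 1 the log2 change from the control mean was −1.07 for PMEL and −0.84 for CDK2, while in replicates 2 and 3 it was −1.21 and −1.301 for PMEL and −1.77 and −1.67 for CDK2. The part of PMEL reads in the CDK2 values was not tested.

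**Figure D2:**
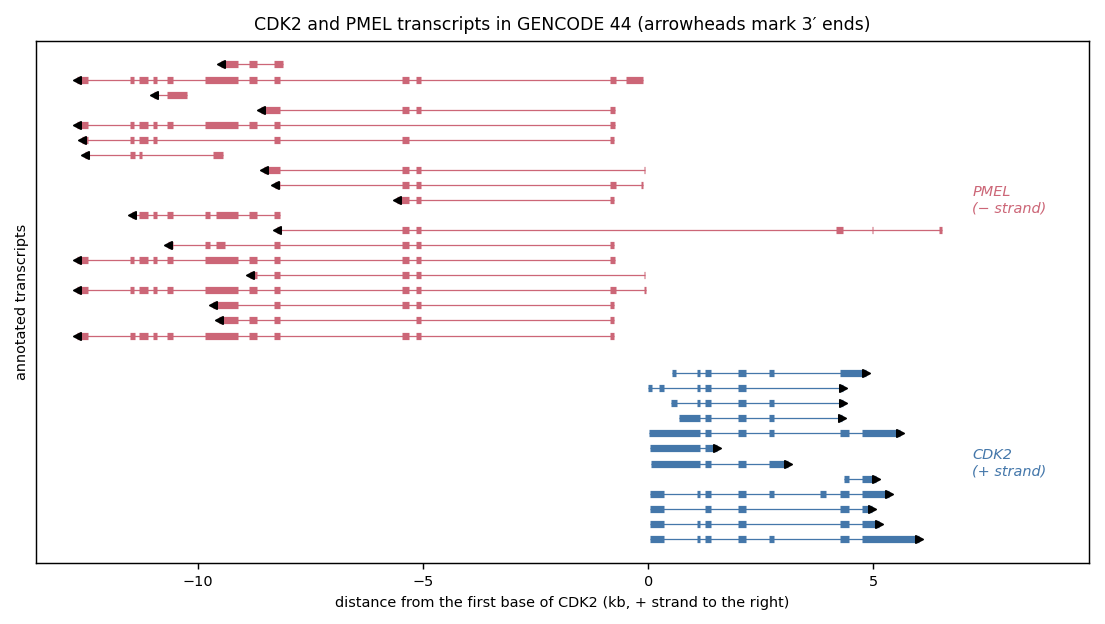
Annotated transcripts of PMEL and CDK2 by distance in kb from the first base of CDK2 (horizontal axis, + strand to the right), with exons as boxes, introns as lines and arrowheads at 3′ ends. The rows are the 19 PMEL and 12 CDK2 transcripts, and of the PMEL transcripts 1 extends across CDK2 while 0 end within it.

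The genes whose levels were most like those of CDK2 over the 12 libraries, among 8072 genes with a mean of at least 10, were C11orf96 (Pearson r of log2 values 0.956), SUCLG1 (0.956), which encodes a subunit of succinate-CoA ligase, and TGFBRAP1 (0.953). These coefficients describe 12 points that share line and Dox group. C11orf96 stood at 166 ± 2.79 and 60.04 ± 3.44 in MeWo control and Dox and at 82.4 ± 12.4 and 27.1 ± 1.73 in SkMel28. This is the same order of groups as for CDK2, but the gene was picked for its likeness in these libraries, so the order adds no evidence.

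CDK4 is a partner of the D-type cyclins (chromosome 12, 57747727 to 57756013, − strand). It stood at 170, 179.9 and 175 in MeWo control and at 136, 58.0 and 47.8 in MeWo Dox. The SkMel28 libraries gave 123, 78.7 and 113 without Dox and at 93.8, 91.6 and 106 with it. In MeWo the 3 Dox libraries lay below the 3 controls, replicate 1 by the least, while the SkMel28 groups overlapped. The mean fell in MeWo from 175 ± 4.72 to 80.6 ± 48.3, with a log2 change of −1.26 (SE 0.26) at an adjusted p of 0.00291. The change was −1.71 without Dox replicate 1 (adjusted p 1.1e-07), and in a fit of the 6 MeWo libraries alone the call was lost (adjusted p 0.112). In SkMel28 the change was −0.089 (95% interval −0.64 to 0.47, adjusted p 0.885). The difference between the changes, −1.17 (SE 0.37), was not called (adjusted p 0.0624), but without MeWo Dox replicate 1 it was −1.63 and called (adjusted p 2.16e-05).

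The 3′ end of CDK4 faces that of TSPAN31 on the opposite strand, which encodes a tetraspanin. Of 14 annotated TSPAN31 transcripts 5 end inside CDK4, and the nearest ends of the genes are 71 bases apart. TSPAN31 had levels of 8.40 ± 1.56 and 8.63 ± 2.49 in MeWo control and Dox, with a change of 0.012 (adjusted p 0.991). In SkMel28 the TSPAN31 change was 0.74 (adjusted p 0.0531).

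MITF and its relatives bind the letters CACGTG (the E-box) and CATGTG, so these were looked for on both strands near the annotated starts of the 10 genes. RefSeq windows from 250 bases before to 50 after a start (GRCh38.p14) were at hand for 7 of them, as 10 windows, and not for CDK2, CCND1 and CCNE2. The start of a window can lie inside the annotated gene. That of RB1 is at 48476450, where the first base of RB1 is 48303744, so the beginning of RB1 was not searched. That of CDK4 is at 57752310, where the first base is 57756013. That of CDKN1B is at 12717368 (first base 12685498) and that of CDKN1A at 36678714 (first base 36676460). The CCND3 windows have their starts at 42048688, 41941808 and 41939205, where the first base is 42050357. The beginnings of CDK4, CDKN1B, CDKN1A and CCND3 were therefore not searched either. Of all 35116 such windows 7.26% hold CACGTG and 11.1% hold CATGTG or its reverse complement CACATG. The longer TCACGTGA, which contains CACGTG, is in 0.98% and TCATGTGA, which contains CATGTG, in 1.00%. Among the 10 windows 2 had a match. One CDK6 window holds CACGTG 30 bases after the start, and the CDK4 window holds CACGTG 3 times and CACATG once, all before the start. The 250 bases before the start are shown for CDK4 as the window with matches there. They are also shown for CDKN1B and for a single window of the several of CCND3, the window with its start at 41941808. Neither holds a match, which describes these windows and not the beginnings of these genes. CCND3 was called higher with Dox in MeWo and CDKN1B in SkMel28. CDK6, whose match lies after the start and is not shown, was also called higher in SkMel28. The bases shown are written 5′ to 3′ on the strand of the gene, with matches in capitals. They lie at chr12:57752311-57752560 (− strand) for CDK4, chr6:41941809-41942058 (− strand) for CCND3 and chr12:12717118-12717367 (+ strand) for CDKN1B.
CDK4: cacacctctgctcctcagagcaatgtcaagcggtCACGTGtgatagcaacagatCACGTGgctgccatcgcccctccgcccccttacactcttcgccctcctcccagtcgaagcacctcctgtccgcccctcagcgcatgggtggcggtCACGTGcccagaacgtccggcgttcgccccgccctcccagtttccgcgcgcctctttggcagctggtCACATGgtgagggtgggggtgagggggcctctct
CCND3: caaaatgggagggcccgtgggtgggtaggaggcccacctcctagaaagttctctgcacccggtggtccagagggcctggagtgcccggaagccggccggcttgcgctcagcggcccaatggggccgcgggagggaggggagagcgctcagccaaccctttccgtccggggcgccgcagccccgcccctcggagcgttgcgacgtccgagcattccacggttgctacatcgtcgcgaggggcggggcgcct
CDKN1B: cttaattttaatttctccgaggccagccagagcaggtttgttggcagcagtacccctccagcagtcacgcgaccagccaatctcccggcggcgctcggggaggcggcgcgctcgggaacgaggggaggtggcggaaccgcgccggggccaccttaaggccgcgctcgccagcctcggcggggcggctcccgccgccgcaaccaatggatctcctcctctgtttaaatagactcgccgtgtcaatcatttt
A match describes these letters only and is not a binding site by itself.

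CDK6, the other kinase of the D-type cyclins (chromosome 7, 92604921 to 92836573, − strand), stood at 21.3, 33.8 and 25.6 in MeWo control and at 36.7, 23.5 and 32.9 in MeWo Dox. Its SkMel28 levels were 40.1, 49.8 and 41.0 without Dox and at 83.7, 72.5 and 67.1 with it. The MeWo groups overlapped, whereas every SkMel28 Dox library exceeded every control. In SkMel28 CDK6 rose from 43.6 ± 5.37 to 74.4 ± 8.48, a log2 rise of 0.76 (SE 0.19) at an adjusted p of 0.015. This call was lost without SkMel28 control replicate 1 (0.70) or 3 (0.72), without Dox replicate 1 (0.67) or 2 (0.77), and with scaling to the spike-in RNAs (0.66, adjusted p 0.0946). In MeWo the change was 0.20 (95% interval −0.20 to 0.60, adjusted p 0.516), and the difference between the lines was not called (−0.56, adjusted p 0.206).

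CCND1, which encodes cyclin D1 (chromosome 11, 69641156 to 69654474, + strand), responded differently in the lines. It stood at 146, 131 and 101 in MeWo control and at 163, 357 and 255 in MeWo Dox. SkMel28 cells had levels of 863, 959 and 1032 without Dox and at 586, 669 and 679 with it. In MeWo all 3 Dox libraries lay above the controls, the first only just, and in SkMel28 all 3 lay below. CCND1 rose in MeWo from 125.9 ± 22.5 to 258.5 ± 96.8, 2.05-fold on the means and 0.98 on the log2 scale (SE 0.20, adjusted p 0.00267). Without Dox replicate 1 the change was 1.27, and the call was lost in a fit of the MeWo libraries alone (adjusted p 0.117). In SkMel28 the mean went from 951 ± 84.6 to 645 ± 50.9, a change of −0.56 (95% interval −0.98 to −0.13) that was not called (adjusted p 0.0904). It was called at the same size in a fit of the SkMel28 libraries alone (adjusted p 0.0131), without MeWo Dox replicate 1 (adjusted p 0.00524) and without MeWo Dox replicate 2 (adjusted p 0.0233). The difference between the changes was 1.54 (SE 0.29, adjusted p 0.00364).

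CCND3, which encodes cyclin D3 (chromosome 6, 41934934 to 42050357, − strand), had the largest rise of the 10 genes. It stood at 33.7, 29.5 and 33.4 in MeWo control and at 58.7, 125 and 99.6 in MeWo Dox. In SkMel28 it measured 53.2, 53.3 and 57.5 without Dox and at 61.5, 60.5 and 65.0 with it. Dox libraries lay above controls in both lines, by a wide margin in MeWo and a narrow one in SkMel28. CCND3 rose in MeWo from 32.2 ± 2.31 to 94.3 ± 33.3, 2.93-fold, or 1.46 on the log2 scale (SE 0.20, adjusted p 4.94e-05), or 1.76 without Dox replicate 1. The SkMel28 change of 0.19 (95% interval −0.23 to 0.60) was not called (adjusted p 0.635). The difference between the changes was 1.27 (SE 0.28, adjusted p 0.0109).

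In MeWo control CCND3 was below SkMel28 control, and in MeWo Dox its mean was the highest of the 4 groups, though MeWo Dox replicate 1 lay below all SkMel28 Dox libraries. For CCND1 the 4 groups had no overlap in the order SkMel28 control, SkMel28 Dox, MeWo Dox and MeWo control, so that the Dox groups lay nearer to each other than the control groups did.

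**Figure D3:**
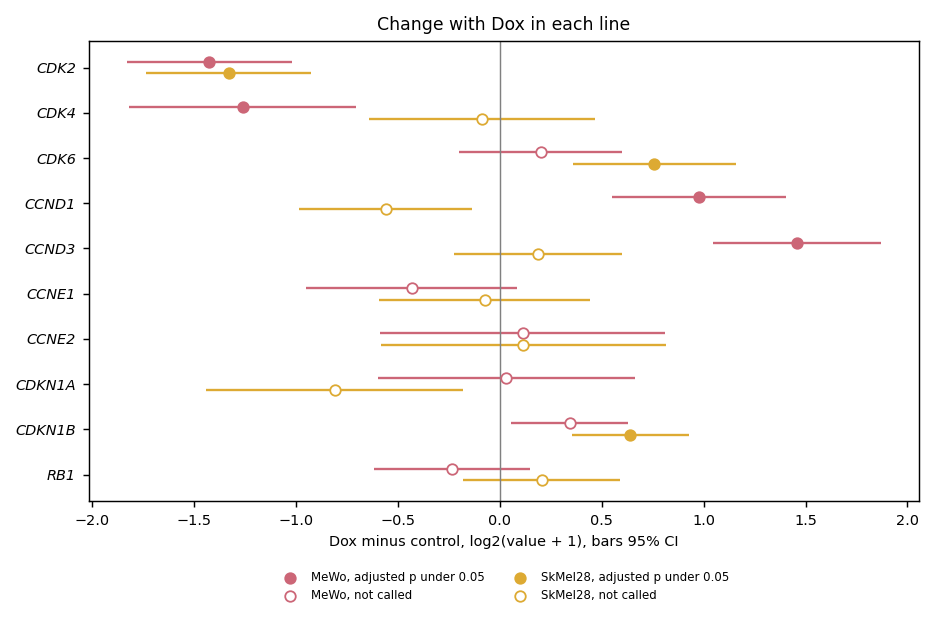
Change with Dox of each of the 10 genes in log2(value + 1) units (horizontal axis) in MeWo and SkMel28, as limma estimates with 95% intervals, filled where the adjusted p was under 0.05. CDK2 is the 1 gene with a filled symbol in both lines, at −1.43 and −1.33, and CCND1 lies at 0.98 in MeWo and −0.56 in SkMel28.

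The E-type cyclins, the activators of CDK2, were low in all groups and were called in neither line. CCNE1 (cyclin E1, chromosome 19, 29811991 to 29824312, + strand) stood at 7.77, 9.71 and 9.07 in MeWo control and at 7.34, 4.93 and 6.77 in MeWo Dox. SkMel28 libraries stood at 10.6, 8.25 and 15.7 without Dox and at 11.3, 11.0 and 9.37 with it. The MeWo groups did not overlap, with a change of −0.43 (95% interval −0.95 to 0.083, adjusted p 0.245), and the SkMel28 groups did (−0.075, adjusted p 0.899). CCNE2 (cyclin E2, chromosome 8, 94879770 to 94896678, − strand) had 3 to 14 reads per library. It stood at 2.30, 2.33 and 0.972 in MeWo control, 2.55, 2.27 and 1.35 in MeWo Dox, 1.67, 3.81 and 3.45 in SkMel28 control and 4.16, 4.01 and 1.81 in SkMel28 Dox. Groups overlapped in both lines, and its changes of 0.11 (95% interval −0.59 to 0.81) and 0.12 (−0.58 to 0.82) allow both a rise and a fall at this depth. INTS8 and NDUFAF6 overlap CCNE2 on the other strand, and 5 INTS8 transcripts end inside it.

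CDKN1B, which encodes the inhibitor p27 (chromosome 12, 12685498 to 12722369, + strand), was higher with Dox in every library of both lines. It stood at 33.7, 32.6 and 36.3 in MeWo control and at 43.1, 43.96 and 43.7 in MeWo Dox. Its levels in SkMel28 were 35.1, 38.7 and 41.0 without Dox and at 65.0, 63.2 and 52.9 with it. The groups of each line did not overlap, and the MeWo Dox libraries lay close together. CDKN1B rose in SkMel28 from 38.3 ± 2.99 to 60.4 ± 6.54, 0.64 on the log2 scale (SE 0.14, adjusted p 0.0046). The MeWo mean went from 34.2 ± 1.87 to 43.6 ± 0.447, a change of 0.34 (95% interval 0.056 to 0.63) that was not called (adjusted p 0.0954). Scaling to the spike-ins exchanged these calls, with 0.61 in MeWo (adjusted p 0.0319) and 0.54 in SkMel28 (adjusted p 0.105). The difference between the lines was not called (−0.30, adjusted p 0.347).

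CDKN1A, which encodes the inhibitor p21 (chromosome 6, 36676460 to 36687337, + strand), was near the limit of detection in MeWo, with 4 to 6 reads per control library and 4 to 7 per Dox library. It stood at 1.44, 1.55 and 1.94 in MeWo control and at 1.28, 2.65 and 1.35 in MeWo Dox. The levels in SkMel28 were 8.07, 4.13 and 8.05 without Dox and at 3.27, 4.34 and 2.42 with it. The SkMel28 groups overlapped through control replicate 2. The SkMel28 mean went from 6.75 ± 2.27 to 3.34 ± 0.966, a change of −0.81 (95% interval −1.44 to −0.18) that was not called (adjusted p 0.098). Without SkMel28 control replicate 2 it was −1.09 and called (adjusted p 0.04), as it was with a pseudocount of 5 (−0.48, adjusted p 0.0446). In MeWo the change was 0.032 (95% interval −0.60 to 0.66, adjusted p 0.967).

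RB1, the pocket protein gene (chromosome 13, 48303744 to 48599436, + strand), stood at 55.3, 58.3 and 61.2 in MeWo control and at 61.6, 40.2 and 48.4 in MeWo Dox. In SkMel28 cells it reached 29.5, 28.6 and 28.0 without Dox and at 40.1, 36.8 and 24.8 with it. The groups of each line overlapped, and RB1 was called in neither, with changes of −0.23 in MeWo (95% interval −0.62 to 0.15, adjusted p 0.414) and 0.20 in SkMel28 (−0.18 to 0.59, adjusted p 0.559). LPAR6, RCBTB2 and LINC00462 lie within RB1 on the other strand and GPR19 overlaps CDKN1B likewise, none with an exon on an exon of the member.

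**Figure D4:**
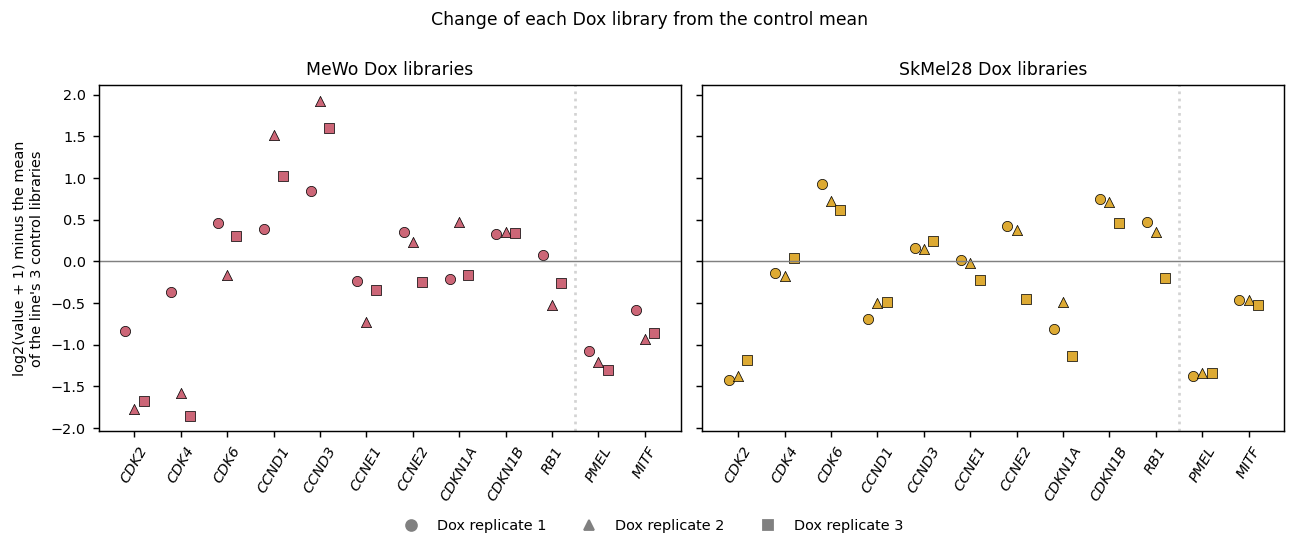
Each Dox library's log2(value + 1) minus the mean of its line's 3 controls (vertical axis) for the 10 genes and for PMEL and MITF, MeWo on the left and SkMel28 on the right, with symbols for replicate numbers. In MeWo replicate 1 lies nearest to 0 of the 3 for CDK2 (−0.84), CDK4 (−0.36), CCND1 (0.39), CCND3 (0.85), PMEL (−1.07) and MITF (−0.58).

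Without Dox the lines differed at 7 of the 10 genes, where 51.4% of all genes differed, and did not overlap for the same number, where 62.1% of all genes did not. CCND1, CCND3, CDK6 and CDKN1A were higher in SkMel28 control (26.6% of all genes were) and CDK2, CDK4 and RB1 were lower (24.8% were). CCND1 was 7.55-fold higher (log2 2.92, SE 0.20, adjusted p 2.09e-09). CDKN1A was 4.10-fold higher on the means, with 4 to 6 reads per MeWo control library, and the log2(value + 1) difference of 1.51 (SE 0.30, adjusted p 0.000434) understates so low a gene. It was 0.80 with a pseudocount of 5 and 2.05 with DESeq2 on the recovered reads, and stayed called in both. CCND3 was 1.70-fold higher (adjusted p 0.00402) and CDK6 1.62-fold (adjusted p 0.00542). The RB1 level was 0.492 of that in MeWo control (log2 −0.997, SE 0.18, adjusted p 0.000197) and the CDK2 level 0.608 of it (log2 −0.74, adjusted p 0.00395). The CDK4 level was 0.601 of it (log2 −0.76, adjusted p 0.0235), a call that was lost without SkMel28 control replicate 2 (−0.56), without any 1 of the MeWo controls (−0.74 to −0.77) and without the mean-variance trend. The median over the 10 genes was 0.39, beside 4.02e-05 over all genes. CCNE1, CCNE2 and CDKN1B were not called between the lines.

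The response to Dox differed between the lines at 2 of the 10 genes, CCND1 and CCND3, where 7.09% of all genes differed. Both changes were more positive in MeWo, as for 3.71% of all genes, while 3.38% were more negative in MeWo. The median of the 10 differences was −0.20, beside −0.021 over all genes. Both D-type cyclin genes stayed called in all 21 alternative analyses of this difference, CCND1 at 1.27 to 1.91 and CCND3 at 1.04 to 1.64.

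**Figure D5:**
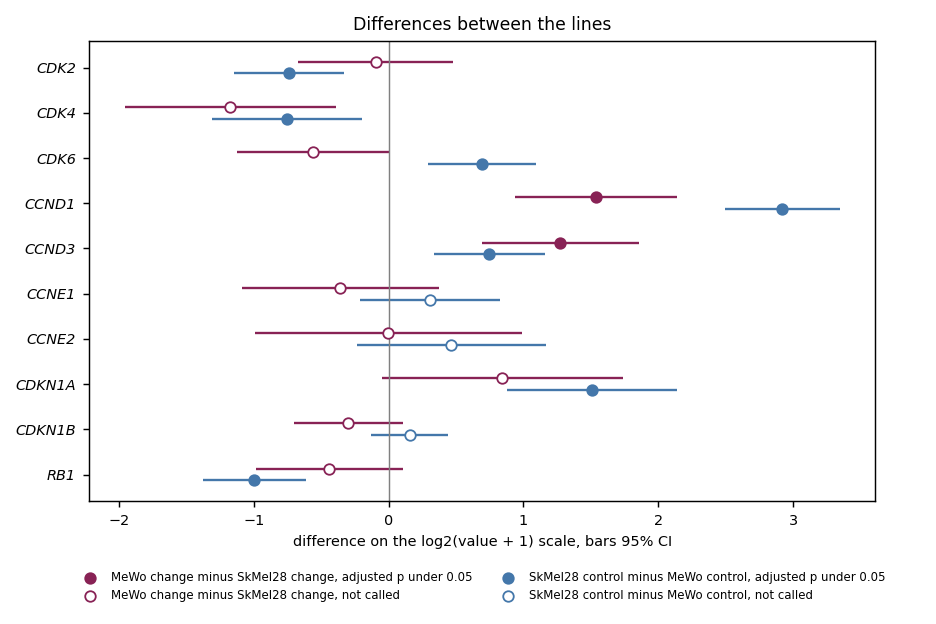
For each of the 10 genes, the MeWo change with Dox minus the SkMel28 change, and SkMel28 control minus MeWo control, both in log2(value + 1) units (horizontal axis) with 95% intervals, filled where the adjusted p was under 0.05. CCND1 (1.54) and CCND3 (1.27) have filled symbols for the difference in response, and 7 genes have filled symbols for the difference between controls.

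Other genes of the G1/S pathway were taken from a list of 34, of which 32 were measured and CCND2 and CDK3 were not listed. In MeWo 3 of the 32 rose and 2 fell with Dox, beside the 8.58% and 8.12% of all genes given above, with a median of −0.030 beside 0 for all genes. In SkMel28 1 rose and 3 fell, beside 5.88% and 5.04% of all genes, with a median of −0.063. Both counts are near the share over all genes, so the called genes are given as single values and not as a result about the list. CDKN1C, which encodes the inhibitor p57, a relative of p21 and p27, was the 1 gene called in both lines. In MeWo it was 32.4 ± 3.07 without and 69.4 ± 6.25 with Dox, a rise of 1.08 on the log2 scale (adjusted p 0.000185). The SkMel28 levels were 8.73 ± 0.81 and 16 ± 1.8, a rise of 0.80 (adjusted p 0.00354). The other risers in MeWo, named after their values were seen, were the CDK4 and CDK6 inhibitor genes CDKN2B (log2 1.35) and CDKN2D (0.89), while CDKN2A (−0.063, adjusted p 0.905) and CDKN2C (−0.26, adjusted p 0.434), inhibitors of the same kinases, were not called in MeWo. CDKN2B and CDKN2D also differed between the lines in their response (1.33 and 0.97, adjusted p 0.0121 and 0.0146). The genes that fell were TFDP1 (−0.68) and SKP2 (−0.68) in MeWo and CCNA1 (−1.08), CDC25A (−0.996) and CKS1B (−0.36) in SkMel28. TFDP1 encodes an E2F partner, SKP2 and CKS1B encode parts of the ubiquitin ligase that marks p27 for breakdown, and CDC25A encodes a phosphatase that activates CDK2. Without SkMel28 control replicate 2 the CCNA1 and CKS1B calls were lost and E2F1 and CDC25A were those called lower in SkMel28, and the CKS1B call was also lost with spike-in scaling. Without MeWo Dox replicate 1, SKP2 was no longer among the genes called lower in MeWo, where TFDP1 and MYC were. The genes called higher in MeWo were then 5, with TFDP2 and FBXW7 added. Those called lower in SkMel28 were also 5, with CDK1 and E2F1 added. Of all genes 31% were then called in MeWo and 16.2% in SkMel28. In that setting 7 genes of the list differed in response in place of 2, while the share of all genes that did so went from 7.09% to 24.7%. With spike-in scaling 0 of the list fell in MeWo and 4 rose, at a median of 0.196. That scaling shifted the MeWo median over all genes by 0.224, and 2097 of all 12616 genes were then higher and 383 lower.

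A list of 20 genes known as E2F targets or proliferation markers, all measured, was chosen with earlier results of these data known. Its counts therefore describe these genes and do not test them as a set. With Dox 0 of the 20 rose and 9 fell in SkMel28, where 5.04% of all genes fell. All 20 changes there were negative (median −0.49, beside 0.0029 for all genes). In MeWo 2 fell, MCM2 and PCNA, near the 8.12% of all genes that fell there, and 11 of 20 changes were negative (median −0.056). CDT1, a replication licensing factor, changed most in SkMel28 (log2 −0.91, adjusted p 0.00726) and the clamp gene PCNA least (−0.067, adjusted p 0.854). In MeWo the largest change was that of ORC1 (−0.84, adjusted p 0.144) and the smallest that of MKI67 (0.0070, adjusted p 0.99). The response of 1 of the 20, RRM2, differed between the lines (0.63, adjusted p 0.0431), where 7.09% of all genes differed. Without SkMel28 control replicate 2 the SkMel28 count of falls was 5, with 19 negative changes, and the count of differing responses 0. There 8.05% and 4.18% of all genes were called, higher and lower together, against 10.9% and 7.09% over all 12 libraries. Without MeWo Dox replicate 1 these counts were 11 and 10, and of the 10 responses 9 were more positive in MeWo. In that fit 16.2% and 24.7% of all genes were called, again higher and lower together. With spike-in scaling the MeWo median was 0.204, with 1 gene higher and 0 lower, while 8 of the 20 fell in SkMel28. That scaling shifted the median over all genes by 0.224 in MeWo and by −0.0816 in SkMel28. Of all 12616 genes 2097 were then higher and 383 lower in MeWo, and 533 were lower in SkMel28.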

How the data were processed

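RNA of 12 libraries was read with the QuantSeq Forward kit, which reads 3′ ends. Per the submitters' processing notes FastQC 0.11.7, cutadapt 2.8, STAR 2.5.1b, hg38 and edgeR were used. The counting tool, annotation and strand are not given in the sources used here. The deposited values are a normalised signal that the authors made with edgeR, reads per 1000000 of effective library size, for 12683 features (67 spike-ins). Every listed feature reaches 1 in at least 3 libraries. Divided by the value of 1 read, 100% of a library's values came out whole (tolerance 0.1).

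For the 12616 genes log2(value + 1) was modelled by limma 3.58.1, run in R 4.3.3 (lmFit, eBayes with a mean-variance trend, 4 group means, two-sided). The comparisons were Dox minus control within MeWo and within SkMel28, their difference (MeWo minus SkMel28), and SkMel28 control minus MeWo control. The code was tested on simulated data with the same spread in all groups, a setting without a library that stands apart. Coordinates are from GENCODE 44 (hg38), which held 92.4% of the symbols, and promoter windows are from RefSeq. The genes named are the 10 members, MITF, PMEL, genes overlapping a member, the 3 genes most like a member called in both lines, and genes from the lists. The members and lists were chosen with earlier results of these data known.

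As alternatives, recovered reads were tested with edgeR 4.0.16 (quasi-likelihood) and DESeq2 1.42.0 (2045 and 1871 genes called in MeWo, 1422 and 1298 in SkMel28). Others were upper-quartile and spike-in scaling, pseudocounts of 0.1 and 5, a filter of at least 5 in 3 libraries, no trend, a replicate block, the contrast's groups alone, and each library left out. The 95% intervals given are those of the limma fit and rest on the spread between libraries. Reads carry no molecular identifiers.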

Additional observations from a re-analysis of the deposited data

Results flagged for a closer look

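The change with Dox differed between MeWo and SkMel28 for CCND1, by 1.536 on the log2 scale (adjusted p 0.00364, limma with Benjamini-Hochberg adjustment), with all 3 MeWo Dox libraries above and all 3 SkMel28 Dox libraries below their controls. It also differed for CCND3, by 1.272 (adjusted p 0.0109), where all Dox libraries lay above their controls in both lines and by more in MeWo. Without MeWo Dox replicate 1 these differences were 1.83 and 1.58. No explanation was tested.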

How the results depend on the processing

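Of 862 recomputed values for single members, 842 kept their side of the threshold, 13 lost and 7 gained a call, and 0 called changes turned direction. The number of members called in MeWo was 2 instead of 4 when the 6 MeWo libraries were fitted alone (CDK4 and CCND1 lost), where 813 genes in all were called. In SkMel28 it was 1 instead of 3 with spike-in scaling (CDK6 and CDKN1B lost). In both cases the cause was not tested. The spike-ins shifted the median over all genes by 0.224 (MeWo), −0.0816 (SkMel28), 0.317 (their difference) and 0.132 (between the lines), and changed the split of calls over all genes to 2097 higher and 383 lower in MeWo and to 394 and 533 in SkMel28. In the difference of responses the split became 1360 and 159, and between the lines 3630 and 2231. Leaving out single libraries gave 4 members in MeWo throughout, 2 to 4 in SkMel28, 2 to 3 in the difference of responses and 6 to 7 between the lines.

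Counts over all genes moved by more than 1.5 times from 2107 in MeWo without Dox replicate 1 (3913), Dox replicate 3 (1301), control replicate 2 (1281) or control replicate 3 (1320), and from 1378 in SkMel28 without control replicate 3 (833), Dox replicate 1 (818) or Dox replicate 2 (784). In the difference of responses the count was 894, and it was 3115 without MeWo Dox replicate 1, 1519 with spike-in scaling, 554 without the trend and 449 to 556 without any 1 of 7 other libraries. With a replicate block the members called stayed at 4, 3, 2 and 7, while all genes called went to 1821, 1070, 641 and 6371. Deviations of libraries with the same replicate number correlated at −0.181 to 0.0421 in MeWo and at −0.0456 to 0.159 in SkMel28. In SkMel28 replicate 3 the 0.159 exceeded the highest value for another number (−0.0327), while elsewhere another number gave a higher value. Such correlations cannot show whether libraries with equal numbers were handled together. With 3 to 14 reads per library, CCNE2 and, in MeWo, CDKN1A are limited by depth.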
